A study of Mus musculus with 38 samples.

Results

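The cytosolic ribosomal protein genes were described in mouse embryonic stem cells grown in 4 media. They were taken as the rows of the deposited expression table named Rpl or Rps followed by a number (with an optional a, x or l), as Rpsa, or as the stalk genes Rplp0, Rplp1 and Rplp2. Pseudogene rows were left out. This gave 81 of 25965 genes, of which 32 encode proteins of the small (40S) ribosomal subunit and 49 proteins of the large (60S) subunit. All 81 had reads in every library and passed the filter on low values (at least 0.5 reads per 1000000 reads, RPM, in at least 3 libraries), as did 14980 genes in all. The rule uses gene names and no measured value.

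Cytosolic ribosomes make nearly all of a cell's protein, and each subunit is an RNA core covered by proteins, most of them needed in equal numbers. The mRNAs of these proteins are short and abundant, and begin with a run of pyrimidines (the terminal oligopyrimidine motif) through which growth signals acting on mTOR and LARP1 set their translation and stability. A few proteins have a second gene. Rpl39l and Rpl10l, copies of the X-linked genes Rpl39 and Rpl10, are known from male germ cells, and Rps27l is known as a p53 target.

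The cells were of the XY line E14 (129/Ola), grown feeder-free on gelatin and passaged every 2 days. All groups carried leukaemia inhibitory factor (LIF). The S/L group grew for 8 days in medium with fetal bovine serum and no inhibitor. The other groups grew in serum-free N2B27 medium: MEKi/L with 1 µM of a MEK inhibitor, GSK3i/L with CHIR99021, a GSK3 inhibitor, at 3 µM, and 2i/L with both, each for 8 days, and GSK3i/L also for 24 days. The 3 serum-free groups therefore differ from S/L in basal medium as well as in inhibitor, which cannot be told apart. All groups are 1 cell line, and each had 3 libraries except GSK3i/L at 24 days with 2 (replicates 2 and 3). The 24 bisulfite samples of the series were not used here.

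Scaling totals, which the values give for 8 of the 14 libraries, ran from 10550000 to 15760000 reads. The markers of embryonic stem cells (10 of 10 found, all at 1 RPM or more in every group) summed to between 5528 and 7633 RPM in each library. The neural list (7 of 8 found, with Neurog2 at 0 in all libraries) summed to at most 288.8 RPM and the trophoblast list (8 of 8) to at most 117 RPM. Fibroblast and mesenchymal markers (10 of 10) stood at 101 to 246 RPM in GSK3i/L at 8 days against 7.49 to 17.5 RPM in the other libraries, led by Col3a1. Primitive endoderm markers (8 of 8) stood at 263 to 341 RPM in 2i/L against 32.3 to 47.2 RPM in S/L, nearly all of it Lama1. Replicate 1 also stood apart here, at 164 RPM of primitive endoderm markers in MEKi/L (79.9 and 84.2 RPM in replicates 2 and 3) and 183 RPM in GSK3i/L at 8 days (83.1 and 63.7 RPM). These sums too were mostly 1 gene: on group means Lama1 made up 102 of 109 RPM in MEKi/L and 95.9 of 110 RPM in GSK3i/L. The highest neural sum was that of MEKi/L replicate 1 (152 and 180 RPM in the other 2). The part of other cells in the results below was not tested, and in bulk RNA fewer cells of a type and less RNA per cell cannot be told apart.

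Libraries of 1 group did not all stand together. MEKi/L replicate 1 and GSK3i/L replicate 1 at 8 days differed from their own replicates in the balance of long and short transcripts. The difference between the mean log2 RPM of 42 long transcripts and that of 45 short respiratory chain transcripts was 0.63 in MEKi/L replicate 1 against -1.88 and -1.47 in replicates 2 and 3. In GSK3i/L at 8 days it was 0.27, -1.69 and -2.79. The 2i/L libraries stood at 0.33, 0.45 and 0.46, S/L at -2.95, -2.59 and -2.48, and GSK3i/L at 24 days at -3.67 and -3.13. Replicate 1 of both media thus stood with the 2i/L libraries. Results are therefore given with and without these libraries, and with this long-minus-short score added to the fit as a term. The slope of that term comes from the spread within groups. This was widest in MEKi/L (standard deviation 1.35) and GSK3i/L at 8 days (1.55), against 0.25 in S/L and 0.07 in 2i/L. The score did not overlap between S/L and 2i/L, S/L and MEKi/L, or 8 and 24 days of GSK3i/L. In these comparisons score and group cannot be told apart. RNA quality was not given in the sources used here, and its part was not tested.

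The sequences around the RefSeq start of 6 genes are shown because the results turn on these genes: the pairs Rpl39 and Rpl39l and Rpl10 and Rpl10l, in which 1 copy departed from the other, Rpl41, among the furthest down in 2i/L, and Rpl4, which moved against the family. Each runs from 100 bases before to 15 bases after the RefSeq start (build GRCm38.p6), 5′ to 3′ on the gene's strand, with CpG dinucleotides in capitals. They lie at chrX:37085208-37085322 (minus strand), chr16:10170128-10170242 (plus), chrX:74270716-74270830 (plus), chr12:66284387-66284501 (minus), chr10:128549154-128549268 (minus) and chr9:64173287-64173401 (plus), in the order given. The RefSeq start lay 180 bases from the deposited start for Rpl39 and 137 for Rpl41, against 0 to 4 bases for the others. The stretches of Rpl39 and Rpl41 therefore lie inside the deposited gene rows and not upstream of them.
Rpl39: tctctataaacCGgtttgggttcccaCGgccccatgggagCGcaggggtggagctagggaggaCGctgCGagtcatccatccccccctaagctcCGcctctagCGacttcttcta
Rpl39l: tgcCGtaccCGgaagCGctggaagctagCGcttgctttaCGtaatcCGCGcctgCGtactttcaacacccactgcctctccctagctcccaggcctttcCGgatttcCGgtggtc
Rpl10: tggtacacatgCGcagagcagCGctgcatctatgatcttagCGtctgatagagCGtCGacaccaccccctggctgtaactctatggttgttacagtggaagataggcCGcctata
Rpl10l: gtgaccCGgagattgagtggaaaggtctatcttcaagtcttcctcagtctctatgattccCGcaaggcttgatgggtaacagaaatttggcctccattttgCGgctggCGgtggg
Rpl41: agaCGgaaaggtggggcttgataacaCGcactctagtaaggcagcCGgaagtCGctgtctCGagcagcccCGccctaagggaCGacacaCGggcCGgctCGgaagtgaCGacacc
Rpl4: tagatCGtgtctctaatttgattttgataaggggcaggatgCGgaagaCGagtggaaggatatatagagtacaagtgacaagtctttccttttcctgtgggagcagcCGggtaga

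RefSeq promoter entries were found for 60 of the 81 genes. Over the whole 300-base window (250 before to 50 after the start) these had a median of 21 CpG dinucleotides (2 to 35), against a median of 7 over all 32851 entries. Rpl39, Rpl39l and Rpl10 each had 17, Rpl10l and Rpl4 had 13 and Rpl41 had 16. The motif CCGGAAG, searched on both strands and known as a binding site of ETS factors, was in 24 of the 60 windows (40%) and in 8.86% of all. It was found in Rpl39, Rpl39l and Rpl41, and not in Rpl10, Rpl10l or Rpl4. The motif TATAAA on either strand was in 5 of the 60 windows (8.33%) against 13.6% of all, and of the 6 genes shown only in Rpl39. The pyrimidine run CTTTCC on either strand was in 29 windows (48.3%) against 26.6% of all. These matches are a description of letters, not of binding, and the motifs were chosen with the results known.

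The share of the summed RPM of all genes that belonged to the 81 genes differed by more than 3-fold between libraries. It was 11.9%, 11.8% and 11% of the summed RPM in S/L, 5.1%, 4.93% and 4.93% in 2i/L, and 15.5% and 15.4% in GSK3i/L at 24 days. These 3 groups did not overlap. In MEKi/L it was 4.84%, 10.8% and 9.78%, and in GSK3i/L at 8 days 5.79%, 10.2% and 11.6%. In both single-inhibitor media replicate 1 stood near 2i/L and the other libraries near S/L. The median gene of the family showed the same order, with 9.74, 9.79 and 9.76 log2 RPM in S/L and 8.69, 8.64 and 8.56 in 2i/L. Short respiratory chain transcripts, which share no gene with the family, had their lowest means in the same 5 libraries (6.14 to 6.35 log2 RPM, against 7.14 to 8.08 in the others), and long transcripts their highest (6.4 to 6.85 against 4.42 to 5.86).

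**Figure D1:**
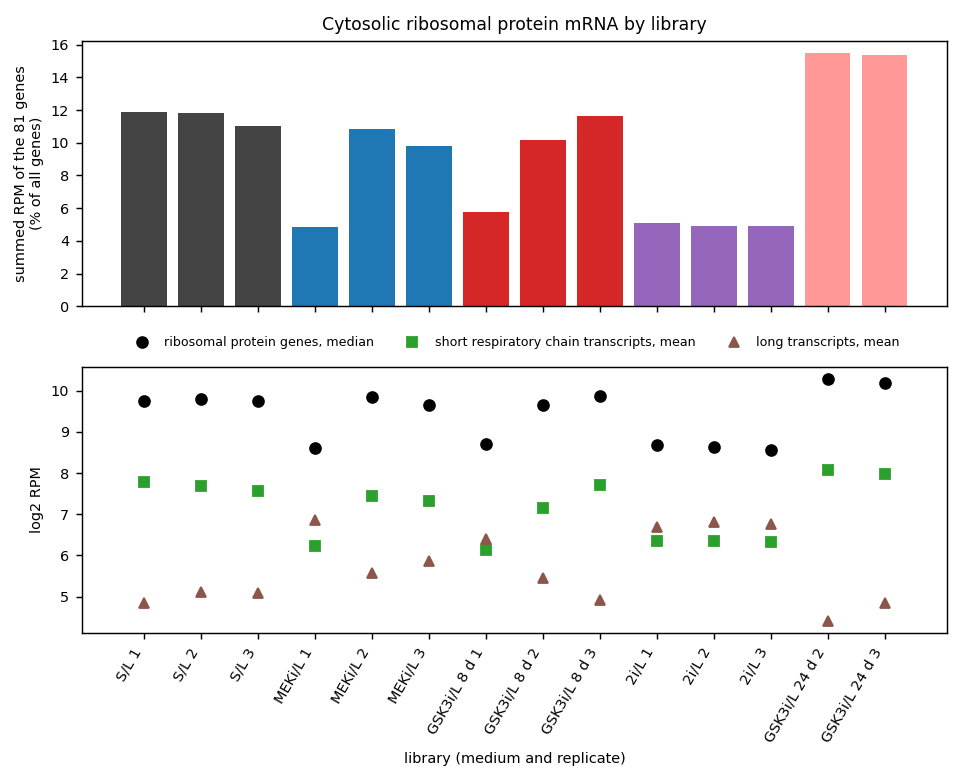
Top, summed RPM of the 81 ribosomal protein genes as a percentage of the summed RPM of all genes, 1 bar per library. Bottom, log2 RPM of the median ribosomal protein gene (circles), the mean of 45 short respiratory chain transcripts (squares) and the mean of 42 long transcripts (triangles). The 2i/L libraries and replicate 1 of MEKi/L and of GSK3i/L at 8 days are lowest in the first 2 and highest in the third.

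Most of the family fell in 2i/L against S/L. Of the 81 genes 58 were lower and 4 higher (limma, Benjamini-Hochberg adjusted p under 0.05 over 14980 genes), where 24.4% of all genes tested were lower and 39.1% higher. The median log2 difference was -1.02 over the family against 0.28 over all genes. Both subunits took part, with 25 of 32 small-subunit genes lower (median -1.24) and 33 of 49 large-subunit genes lower (median -0.98). In 75 of the 81 the libraries of the 2 media did not overlap (68 lower, 7 higher), where the share over all genes was 74.9%. Leaving out any 1 library left 50 to 54 lower. With the score as covariate, which did not overlap between these 2 media and so cannot be told apart from medium, 2 were lower and 8 higher. The median became 0.14. Of the 62 calls 3 were then made in the same direction and 4 in the opposite one. The scaling of the table moved the middle of all genes: with trimmed mean scaling the median of all genes was 0.04 and that of the family -1.26. The authors had matched S/L and GSK3i/L at 8 days to a shared distribution and left the other libraries as plain RPM, so in every comparison between these 2 kinds of library, this one included, scaling and medium cannot be told apart for a shift of the whole family.

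The genes that fell furthest in 2i/L came from both subunits. Rpl39l, whose protein lines the exit tunnel for the nascent chain, is described with its pair. Rps24, a small-subunit protein needed for processing of its rRNA, had 4239, 3027 and 2788 RPM in S/L and 539, 521 and 499 RPM in 2i/L. No 2i/L library came near an S/L library, and the log2 difference was -2.66 (SE 0.51, limma adjusted p = 0.00051). Rps25, a small-subunit protein used by some viral entry sites on the ribosome, had 1987, 1759 and 1480 RPM in S/L and 300, 296 and 271 RPM in 2i/L (log2 difference -2.58, SE 0.50). The row of Rps25 overlaps Ccdc84 on the opposite strand (85.4 RPM on average). For both genes the value with the score as covariate was near -0.4 (Rps24 -0.39, adjusted p = 0.15, and Rps25 -0.37, adjusted p = 0.24).

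Rpl41 and Rpl5 fell to a similar extent. Rpl41, the shortest ribosomal protein, had 1471, 1471 and 1400 RPM in S/L and 279, 251 and 253 RPM in 2i/L (log2 difference -2.47, SE 0.47). Rpl5, which with Rpl11 carries 5S rRNA and can bind Mdm2, had 4005, 2974 and 2974 RPM in S/L and 626, 605 and 633 RPM in 2i/L (log2 difference -2.40, SE 0.43, limma adjusted p = 0.00034). In the fit with the score Rpl5 stood at -0.50 (limma adjusted p = 0.048), and its row overlaps Fam69a on the opposite strand (55.6 RPM on average). Its partner Rpl11 fell less, from 625, 715 and 633 RPM in S/L to 388, 384 and 368 RPM in 2i/L (log2 difference -0.79, SE 0.24). The 2 proteins of this particle thus differed in how far their mRNAs moved, a difference not tested on its own.

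Other small-subunit genes with known roles fell too. Rps27a, made as a fusion with ubiquitin, changed by -2.11 on the log2 scale (SE 0.50). Rps19, the gene most often mutated in Diamond-Blackfan anaemia, changed by -1.45 (SE 0.38). Rps6, the substrate of S6 kinase, changed by -0.97 (SE 0.31, limma adjusted p = 0.014), from 492, 475 and 415 RPM in S/L to 238, 234 and 231 RPM in 2i/L. Rpsa, also known as the laminin receptor, was not called (-0.51, SE 0.22, adjusted p = 0.056). All 4 had higher values with the score as covariate, from 0.07 for Rps27a to 0.34 for Rps6, none past the threshold.

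The stalk genes were among the 19 of the 81 that were not called in 2i/L against S/L. Rplp0, the stalk base that binds the dimers of Rplp1 and Rplp2, had 1257, 1294 and 1339 RPM in S/L and 1080, 1056 and 1095 RPM in 2i/L (log2 difference -0.27, SE 0.19, limma adjusted p = 0.23). Rplp2 had a log2 difference of -0.26 and Rplp1 one of 0.11, neither called. Set against the median gene of the family in each library, all 3 were higher in 2i/L, by 0.86 for Rplp0, 0.87 for Rplp2 and 1.24 for Rplp1 (limma adjusted p = 0.015, 0.01 and 0.0016). Members lie on both sides of their own median by construction, and the number called on this scale is not given here. A small change was not particular to the stalk: group means in S/L and 2i/L were 875 and 771 RPM for Rpl14 and 453 and 488 RPM for Rpl23.

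**Figure D2:**
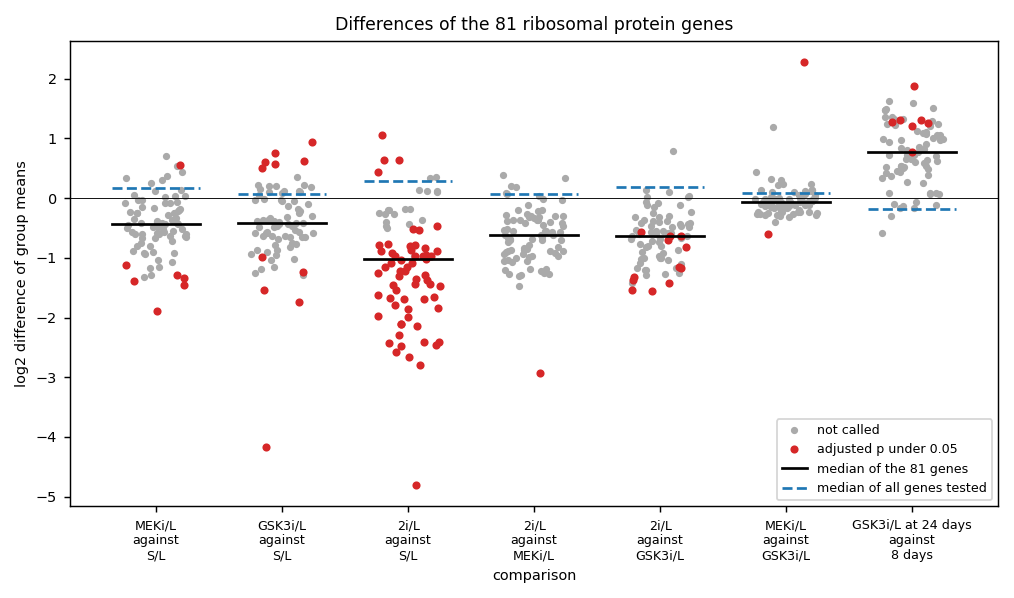
Log2 difference of group means for each of the 81 genes (points, spread sideways for clarity) in the 7 comparisons, in red where limma's adjusted p was under 0.05, with the medians of the 81 genes (black) and of all genes tested (blue dashes). The whole cloud lies lowest in 2i/L against S/L, at a median of -1.02, and highest at 24 against 8 days, at 0.77.

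A few members did not follow the family. For each gene, Pearson's r was taken between its 14 log2 values and the median of the other 80 members, as a description over libraries that share their medium and their scaling. The median r was 0.96, and 63 of the 81 had an r above 0.8, up to 0.995 for Rpl11. It was below 0 for 6 genes, among them Rpl4 (-0.67), Rpl28 (-0.53), Rps26 (-0.42), Rps2 (-0.42) and Rpl23 (-0.03), of which Rpl23 was singled out after its values were seen.

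Rpl4, a large-subunit protein that lines the exit tunnel, was the clearest of these. It had 1247, 2016 and 2104 RPM in S/L and 3499.5, 3602 and 3737 RPM in 2i/L. All 2i/L libraries were higher, with a log2 difference of 1.05 (SE 0.28, limma adjusted p = 0.0047). It had 4239, 4005 and 2219 RPM in GSK3i/L at 8 days (log2 difference 0.94 against S/L, adjusted p = 0.021) and 3316, 2956 and 2351 RPM in MEKi/L (0.71, adjusted p = 0.055). Within each of these media replicate 1, the library with the least of the family as a whole, had the most Rpl4. The difference in 2i/L was 0.33 with the score as covariate (adjusted p = 0.39).

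Rps26 and Rpl28 also rose in 2i/L. Rps26, which contacts the mRNA at the exit channel, had 520, 596 and 561 RPM in S/L and 917, 849 and 847 RPM in 2i/L (log2 difference 0.64, SE 0.19, limma adjusted p = 0.01). Rpl28, a protein without a counterpart in budding yeast, had 241, 323 and 310 RPM in S/L and 402, 391 and 378 RPM in 2i/L (0.43, SE 0.18, adjusted p = 0.043). The libraries of the 2 media did not overlap for either gene. With the score as covariate they stood at 0.17 and 0.15 and were not called (limma adjusted p = 0.5 and 0.6). Under trimmed mean scaling neither was called (adjusted p = 0.083 and 0.34), and Rpl28 was also not called with the replicate block (0.052) or in 5 of the 6 fits that left out 1 library (all but the one without S/L replicate 2).

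**Figure D3:**
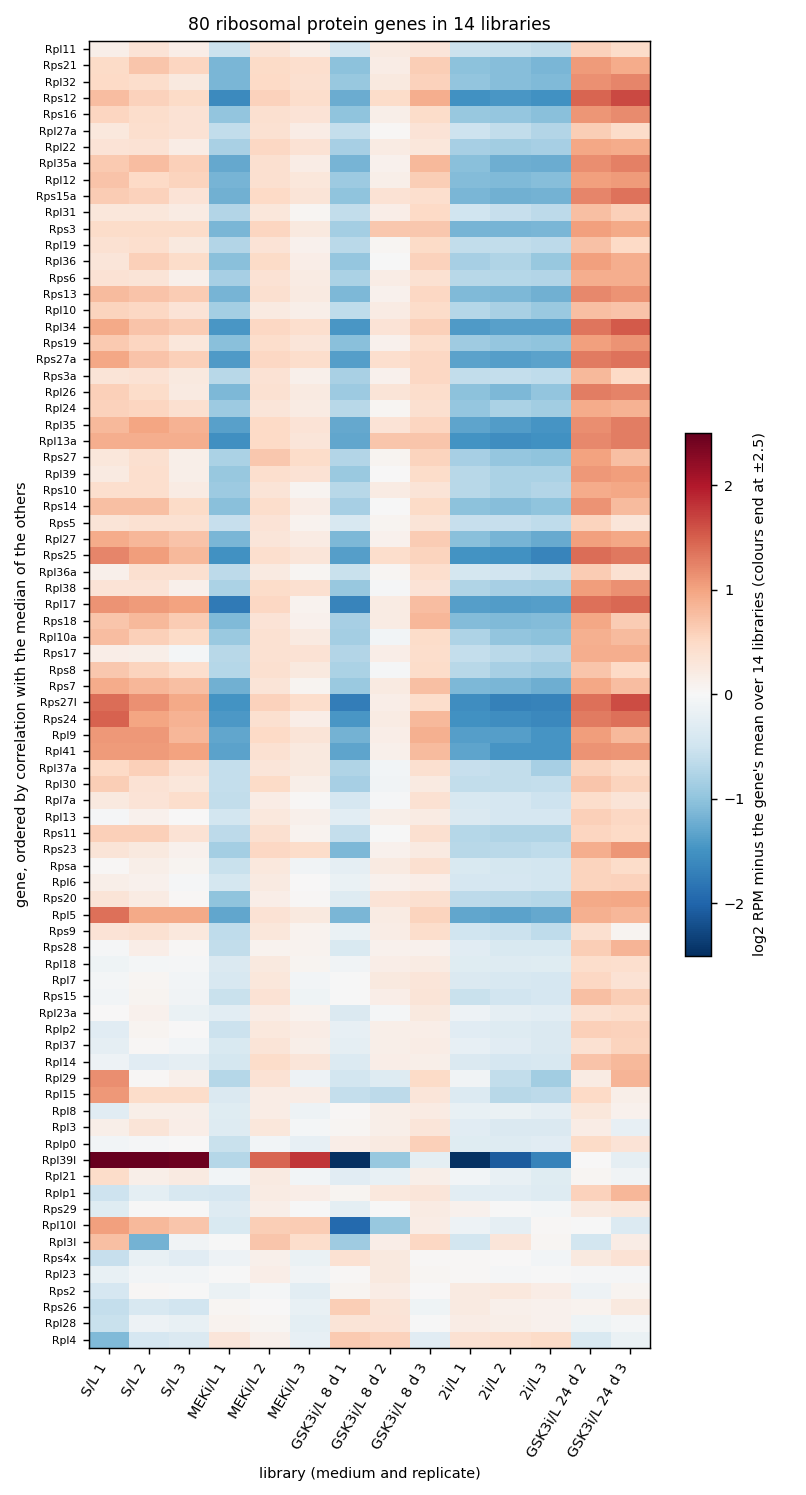
Log2 RPM of 80 of the 81 genes (rows) in the 14 libraries (columns), minus the gene's own mean, with rows ordered from the gene most correlated with the rest of the family (top) to the least (bottom). Most rows are blue in 2i/L and in replicate 1 of MEKi/L and of GSK3i/L at 8 days, while Rpl4 at the bottom has the opposite pattern and Rpl39l and Rpl10l have their own.

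The pair Rpl39 and Rpl39l showed the largest change within the family. Rpl39l had 417, 355 and 289 RPM in S/L, 32.1, 145 and 183 RPM in MEKi/L, 6.09, 27.3 and 44.2 RPM in GSK3i/L at 8 days, 9.45, 12.4 and 16.6 RPM in 2i/L, and 53.2 and 44.7 RPM in GSK3i/L at 24 days. Every library without serum was below every S/L library, and the MEKi/L libraries overlapped the GSK3i/L ones only through replicate 1. Rpl39 had 422, 481 and 397 RPM in S/L, 186, 477 and 464 RPM in MEKi/L, 188, 362 and 494 RPM in GSK3i/L at 8 days, 221, 207 and 208 RPM in 2i/L, and 759.6 and 737 RPM at 24 days. It moved with the rest of the family.

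Rpl39l was lower than in S/L by 4.81 on the log2 scale in 2i/L (SE 0.65, limma adjusted p = 3.4e-05), by 4.17 in GSK3i/L (SE 0.65, adjusted p = 0.00038) and by 1.89 in MEKi/L (SE 0.65, adjusted p = 0.032). Set against the median gene of the family, the differences were -3.68, -3.82 and -1.50 (limma adjusted p = 1.4e-05, 6.6e-05 and 0.028). With the score as covariate they were -1.88 in 2i/L (limma adjusted p = 0.00037), -2.97 in GSK3i/L (8.8e-08) and -0.21 in MEKi/L (0.55). The MEKi/L call was also lost without MEKi/L replicate 1 (log2 difference -1.11, limma adjusted p = 0.16) and without any 1 S/L library (adjusted p from 0.054 to 0.096). The calls in 2i/L and GSK3i/L against S/L were kept in all the alternatives run.

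The media without serum also differed among themselves in Rpl39l. It was higher in MEKi/L than in GSK3i/L by 2.28 (SE 0.65, limma adjusted p = 0.024) and lower in 2i/L than in MEKi/L by 2.92 (SE 0.65, adjusted p = 0.0097). The first call was lost without GSK3i/L replicate 1 (1.44, limma adjusted p = 0.074) or MEKi/L replicate 2 or 3 (0.09 and 0.12), and the second without MEKi/L replicate 3 (0.056). Between 2i/L and GSK3i/L the log2 difference was -0.64 (SE 0.65, adjusted p = 0.47). This pair of media had no stable direction. The difference was -1.48 (limma adjusted p = 0.04) without GSK3i/L replicate 1 and 1.08 (adjusted p = 0.0055) with the score as covariate. The score did not overlap between these 2 media, so in that last fit score and medium cannot be told apart.

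The share of Rpl39l in the pair, a ratio within each library, differed between the media. Rpl39l held 49.7%, 42.4% and 42.2% of the RPM of the 2 genes in S/L and 14.8%, 23.3% and 28.2% in MEKi/L. It held 3.15%, 7.03% and 8.23% in GSK3i/L at 8 days, 4.1%, 5.66% and 7.38% in 2i/L and 6.54% and 5.72% in GSK3i/L at 24 days. S/L, MEKi/L and the groups with the GSK3 inhibitor did not overlap, while those 3 groups overlapped with each other. Replicate 1 of MEKi/L and of GSK3i/L at 8 days had the lowest share within its group. RPM is not per length, so these shares are not shares of molecules. With 3 libraries a group, an exact test could not go below a p of 0.10, and none was run on the shares.

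Rpl10l departed in another way. It had 156, 136 and 124 RPM in S/L, 59, 118 and 119 RPM in MEKi/L, 20, 40.2 and 87.5 RPM in GSK3i/L at 8 days, 70.6, 65.5 and 78.8 RPM in 2i/L, and 76.5 and 60.4 RPM in GSK3i/L at 24 days. Its parent Rpl10, a late-joining protein of the large subunit, had 649, 625 and 558 RPM in S/L, 243, 516 and 488 RPM in MEKi/L, 283, 503 and 605 RPM in GSK3i/L at 8 days, 269, 252 and 230 RPM in 2i/L, and 738 and 721 RPM at 24 days. Rpl10l therefore held 17.9% to 19.4% of the pair in S/L, 18.7% to 19.6% in MEKi/L and 20.7% to 25.6% in 2i/L, but 6.62% to 12.6% in GSK3i/L at 8 days and 7.73% to 9.39% at 24 days. The 5 libraries with the GSK3 inhibitor alone were below the other 9, and the 2i/L libraries, which had the same inhibitor with the MEK inhibitor, were above them.

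In the fit over all genes Rpl10l was lower in GSK3i/L than in S/L at 8 days by 1.74 (SE 0.40, limma adjusted p = 0.0057), and by 1.02 with the score as covariate (adjusted p = 9.4e-05). It was not called in MEKi/L against GSK3i/L (log2 difference 1.19, SE 0.40, adjusted p = 0.054), but was so with the score (1.47, adjusted p = 5.5e-07) and relative to the family's median (1.22, adjusted p = 0.027). In 2i/L against GSK3i/L it differed by 0.79 (adjusted p = 0.15), and relative to the family's median by 1.57 (adjusted p = 0.0036). Against S/L it was lower in 2i/L by 0.95 (adjusted p = 0.05), a call that any left-out library ended (adjusted p from 0.072 to 0.13) and that turned to 0.80 with the score (adjusted p = 0.011). Fibroblast and mesenchymal markers stood at 101 to 246 RPM in GSK3i/L at 8 days and at 10 to 11.6 RPM at 24 days, and their part in these values was not tested.

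Rps27l and Rps27 formed the third pair. Rps27l had 1888, 1591 and 1387 RPM in S/L, 255, 1075 and 972 RPM in MEKi/L, 218, 806 and 972 RPM in GSK3i/L at 8 days, 245, 222 and 227 RPM in 2i/L, and 1879 and 2224.5 RPM at 24 days. It followed the family, with a wider range. In 2i/L against S/L it fell by 2.80 (SE 0.53, limma adjusted p = 0.00052), while Rps27 fell by 1.21 (SE 0.35, adjusted p = 0.0083). In the fit with the score the 2 stood at -0.43 and 0.29, neither called. Rps27l held 65.4% to 70.9% of the pair in S/L, 59.6% to 67.5% in GSK3i/L at 24 days and 40.6% to 41.9% in 2i/L. In MEKi/L it held 41%, 51.4% and 52.7%, and in GSK3i/L at 8 days 36.2%, 54.8% and 50.8%, again lowest in replicate 1.

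**Figure D4:**
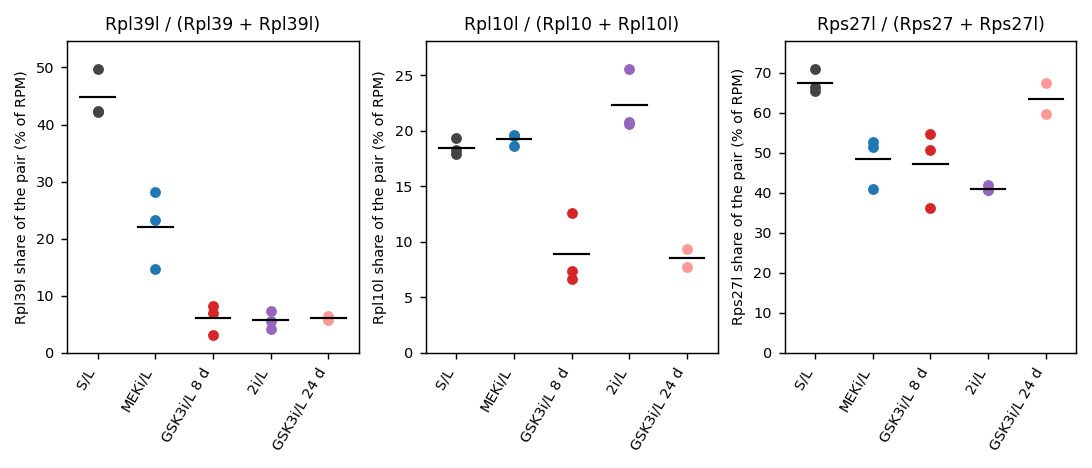
Share of the second gene of each pair in the summed RPM of both, in percent, for every library (points) with the group mean (line). Rpl39l is highest in S/L and lowest in the 3 groups with the GSK3 inhibitor, Rpl10l is lowest in the 2 groups with the GSK3 inhibitor alone, and Rps27l is highest in S/L and in GSK3i/L at 24 days.

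Rpl3l, a gene of heart and skeletal muscle, stood between 0.65 and 2.48 RPM in all libraries and held at most 0.23% of its pair with Rpl3. Rpl22l1, Rpl7l1 and Rpl36al fall outside the name rule. Rpl22l1, whose protein can bind the same RNAs as Rpl22, fell by 2.28 in 2i/L against S/L (SE 0.55, limma adjusted p = 0.0026) and held 15.2% to 20.3% of its pair in S/L against 8.21% to 9.14% in 2i/L. Rpl36al fell by 1.37 and Rpl7l1 by 0.80 (limma adjusted p = 0.0013 and 0.0052). Fau, a fusion of a ribosomal protein with a ubiquitin-like protein that also falls outside the rule, fell by 1.36 (limma adjusted p = 0.0038). Of the 5 genes tested outside the rule 4 were lower and 0 higher, beside 24.4% and 39.1% of all genes.

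In the media with 1 inhibitor few of the 81 genes were called, and the calls moved with single libraries. In MEKi/L against S/L 6 were lower and 1 higher, where 14.7% of all genes were lower and 26.1% higher, and the family's median was -0.44 against 0.17 over all genes. The libraries did not overlap for 32 of the 81 (55.1% of all genes). Rpl39l, Rpl17 (log2 difference -1.46), Rps24 (-1.40), Rpl5 (-1.33), Rpl41 (-1.29) and Rps7 were lower. The count lower was 0 without MEKi/L replicate 1 or S/L replicate 1, 17 without MEKi/L replicate 2, and 1 without S/L replicate 2 or 3. The count higher was 3 without MEKi/L replicate 1, 2 without replicate 3, and 0 without MEKi/L replicate 2 or S/L replicate 1. The median was -0.11 without MEKi/L replicate 1. Other scalings moved the split, to 0 higher and 13 lower with trimmed mean scaling and to 4 higher and 3 lower with quantile normalization, and the score as covariate gave 16 higher and 0 lower with a median of 0.21.

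In GSK3i/L against S/L at 8 days 5 were lower and 6 higher, where 14.4% of all genes were lower and 16.8% higher. The medians were -0.42 and 0.06, and the libraries did not overlap for 26 of the 81 (40.9% of all genes). Those higher included Rpl4, Rps26 (log2 difference 0.76), Rplp1 (0.60), Rps4x, an X-linked small-subunit gene (0.57), and Rpl28 (0.50). Those lower were Rpl39l, Rpl10l, Rps27l (-1.54, limma adjusted p = 0.042), Rpl5 (-1.23, adjusted p = 0.044) and Rpl15. The count lower was 2 or 3 without any 1 library other than GSK3i/L replicate 3, and 27 without that one. The count higher was 1 without GSK3i/L replicate 2 or S/L replicate 1, and 3 without GSK3i/L replicate 1 or S/L replicate 3. The median was -0.08 without GSK3i/L replicate 1. Rpl39l, Rpl10l and Rps26 were called without any 1 library, while Rpl4, Rplp1 and Rps27l were each not called in at least 2 of these fits (limma adjusted p up to 0.18). Trimmed mean scaling gave 4 higher and 5 lower, and a fit of these 2 groups alone 0 higher and 2 lower. The score as covariate gave 16 higher and 5 lower, with a median of 0.11.

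MEKi/L and GSK3i/L differed from each other in 2 genes. Rpl39l was higher in MEKi/L and Rplp0 lower, where 12.2% of all genes were higher and 5.65% lower. The medians were -0.06 and 0.09, and 2 of the 81 did not overlap (27.7% of all genes). Rplp0 had 906, 1267 and 1141 RPM in MEKi/L and 1492, 1550 and 1987 RPM in GSK3i/L (log2 difference -0.60, SE 0.19, limma adjusted p = 0.039), and all GSK3i/L libraries were higher. That call was lost with quantile normalization (adjusted p = 0.13), which left 1 higher and 0 lower, and in 4 of the 6 fits that left out 1 library (adjusted p from 0.067 to 0.12). The family's median was 0.36 without MEKi/L replicate 1 and -0.32 without GSK3i/L replicate 1, and 0.16 with the score as covariate (16 higher, 2 lower).

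The comparisons of 2i/L with each single inhibitor turned on replicate 1. Against MEKi/L 1 gene was lower, Rpl39l, and 0 higher, where 6.11% of all genes were lower and 6.81% higher, and the family's median was -0.62 against 0.07. The libraries did not overlap for 13 of the 81 (37.8% of all genes). Without MEKi/L replicate 1, 54 were lower and the median was -0.95. Without replicate 3 none was. Leaving out replicate 1 of both MEKi/L and GSK3i/L gave 67 lower. Weighting the reads recovered from these columns for their depth (voom) gave 11.

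Against GSK3i/L 12 genes were lower in 2i/L and 0 higher, where 8.02% of all genes were lower and 19.8% higher. The medians were -0.63 and 0.18, and 41 of the 81 did not overlap (45.7% of all genes). The 12 included Rpl13a, a large-subunit protein also known from translational control in inflammation (log2 difference -1.55, SE 0.53, limma adjusted p = 0.041), Rps12 (-1.54), Rps25 (-1.43) and Rplp0 (-0.63, SE 0.19, adjusted p = 0.024). Without GSK3i/L replicate 1, 59 were lower. Without replicate 2, 1 was, and without replicate 3 or any 1 of the 2i/L libraries 0 were, as with quantile normalization or a fit of the 2 groups alone. With the score as covariate 1 was lower and 3 higher, and the median was 0.01. The score did not overlap between these 2 media and so cannot be told apart from medium. Counts in 2i/L against the 2 single inhibitors and against S/L share the 2i/L libraries.

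Between 8 and 24 days in GSK3i/L the family stood higher. The median log2 difference was 0.77, against -0.19 over all genes, and 73 of the 81 had a positive difference. Of these 7 passed the test and 0 fell, where 4.3% of all genes were higher and 13.2% lower. The libraries did not overlap for 61 of the 81 genes (59 higher), where the share over all genes was 46.4%. Rps27l rose by 1.88 (SE 0.60, limma adjusted p = 0.045), Rpl38, known for its part in translation of Hox mRNAs, by 1.30 (SE 0.37, adjusted p = 0.032) and Rpl39 by 1.21 (SE 0.40, adjusted p = 0.049). Rpl17 (1.63), Rpl34 (1.60) and Rps12 (1.51) had larger differences that were not called (limma adjusted p = 0.076, 0.062 and 0.085). Rpl4 had the most negative difference (-0.58, adjusted p = 0.18).

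This comparison too rested on single libraries. Without GSK3i/L replicate 3 at 8 days 54 were higher and 1 lower, and without any other 1 library 0 were called. With the score as covariate 0 were called and the median was -0.02. Only 2 libraries stand at 24 days, and they are plain RPM while the 8-day values were matched. In the matched libraries the top values are rank values: Rps3, which lines the mRNA entry channel, stood at 8549 RPM in all 3 S/L libraries and Rpl13a at 9867 RPM.

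RPM is not per length, and the means over all 14 libraries pool groups that differ. In the 6 matched libraries the values are also not plain read counts. The levels that follow therefore describe the deposited values and do not compare amounts of mRNA between genes. Mean RPM was highest for Rps3 (7193 RPM), Rpl13a (6788), Rps14 (3988), Rpl8 (2939) and Rpl4 (2841). It was lowest for Rpl29 (0.79 RPM), Rpl3l (1.57), Rpl21 (63.2), Rpl10l (86.6) and Rpl39l (117). Rpl21 has 11 pseudogene rows in the table, Rpl29 has 2, and 31 of the 81 genes have at least 1. How reads shared between a gene and its copies were counted is not given in the sources used here, so the levels of these genes are uncertain. Overlap with another gene's row concerned 18 of the 81. The 59 pseudogene rows summed to 1065 to 1449 RPM in S/L and 316 to 338 RPM in 2i/L, and so moved with the family.

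The genes outside the family whose 14 log2 values were most like the family's median were Banf1, Cox7b, Tomm7, Wbp5 and Cox6c. Pearson's r over 14 libraries was 0.987 for Banf1, a small chromatin-binding protein, and 0.987 for Tomm7, a small part of the mitochondrial import pore. It was 0.986 for Wbp5, and 0.987 and 0.986 for Cox7b and Cox6c, small subunits of cytochrome c oxidase. Cox7b and Cox6c are also among the short respiratory chain transcripts of the score, which thus holds genes that moved with the family.

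Lists of the ribosome's supply did not all move with the family in 2i/L against S/L. Of 76 mitochondrial ribosomal protein genes 55 were lower and 2 higher (median -1.07), led by Mrpl41 (log2 difference -3.22), Mrpl33 (-2.97) and Mrpl20 (-2.63). Of 64 ribosome biogenesis genes 19 were lower and 14 higher (median 0.03). The 3 with the largest change all fell: Nop10 (-2.53), a part of the particles that modify rRNA, Rpf2 (-1.99), which brings the 5S particle to the large subunit, and Nip7 (-1.85). Of 28 RNA polymerase I and III genes 11 were lower and 8 higher (median 0.06), with Polr1e (-1.74), Taf1d (-1.62) and Twistnb (-1.57) the furthest changed. The limma call is the same as above, and the share of all genes lower was 24.4% throughout, and that higher 39.1%.

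The factors that use the ribosome were also mixed. Of 36 translation factors 12 were lower and 11 higher (median -0.13), with falls of Eif1ax (-2.46), Eif3m (-2.12) and Eif2s1 (-1.99), all of initiation. Of 19 genes outside the family with a terminal oligopyrimidine motif 9 were lower and 6 higher (median -0.56). This list shares genes with the translation factors, among them Eef1b2 and Eif3e, so some genes are counted in both. Eef1b2, an elongation factor, fell by 1.63 and Eif3e by 1.62, while Vim, an intermediate filament gene, rose by 1.58. Of 28 regulators of translation and ribosome supply 14 were higher and 1 lower (median 0.57). The gene lower was Myc, a driver of ribosome biogenesis (log2 difference -3.59, SE 0.56, limma adjusted p = 0.00011), and Mknk1 (1.40) and Eif2ak4 (1.30), kinases that act on initiation factors, were the furthest up. In the lists that define the score, 33 of 45 short respiratory chain transcripts were lower (median -1.41) and 37 of 42 long transcripts higher (median 1.89).

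At 24 against 8 days in GSK3i/L these lists again parted. Beside 4.3% of all genes higher and 13.2% lower, 14 of the 76 mitochondrial ribosomal protein genes were higher and 1 lower (median 0.61). Of the 64 biogenesis genes 23 were lower and 0 higher (median -0.38), led by Ddx21 (-1.39), Heatr1 (-1.15) and Ddx10 (-1.15), and of the 36 translation factors 11 were lower and 1 higher (median -0.51). The genes that build ribosomes and the genes of the ribosome's own proteins thus had medians of opposite sign, -0.38 and 0.77. Short respiratory chain transcripts had a median of 1.03 (5 higher, 0 lower) and long transcripts one of -0.94 (0 higher, 13 lower). The part of transcript length in these differences was not tested, and the fits with the score cannot tell it apart from time in culture.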

How the data were processed

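Strand-specific libraries were made from poly(A) RNA and read as 50-base single ends, per the labels' protocols. The build GRCm38, HISAT2 and Trim Galore 0.6.5 are named in the submitters' processing notes, beside Bismark 0.22.3 for bisulfite reads. How reads were counted, whether by strand, and on which annotation is not given in the sources used here. Values deposited for 25965 genes are log2 of reads per 1000000 reads (log2 RPM). For 8 libraries (GSK3i/L at 24 days, 2i/L and MEKi/L) at least 99.96% of the deposited values were whole reads, to within 0.02. In the remaining 6, GSK3i/L at 8 days and S/L, 2.42% to 8.89% were. Judged from the values these had been matched to 1 distribution, with sorted log2 values at most 0.079 apart above 2 RPM, so their depth is unknown. No 2 columns were identical.

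All 14 libraries entered 1 fit in limma 3.58.1 (R 4.3.3), with group as the only term, an intensity trend and robust variances. The fit was tested on simulated data. A gene was called at a Benjamini-Hochberg adjusted p under 0.05 over 14980 genes, and "rose" or "fell" means called. Log2 differences are between group means of the deposited log2 values, with SE. Relative values came from the same fit after subtracting each library's median of the 81 genes. The series calls the RNA samples biological triplicates without naming their cultures. The p-values cover only the variation among these libraries. Figures were drawn with matplotlib 3.10.9.

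Alternatives were another scaling (trimmed mean, quantile), a pseudocount of 1 RPM, no filter, the 2 groups alone, a replicate block, the score as covariate and leaving out each library. Leaving out both replicates 1, the voom fit and centring together with the score were added after seeing the data. A count test on recovered reads for 2i/L against MEKi/L was planned and not run, and the voom fit on those reads was used in its place. The members and lists were chosen with earlier results of these data known. Genes were named by rule: the 4 highest and 4 lowest differences per comparison, the paralogue pairs, the stalk, Rpl5, Rpl11, Rps6, Rpsa, Rps19, Rps27a and Rpl41, genes outside the name rule, the 5 highest and 5 lowest levels, the 3 most changed called genes of each list described and the 5 genes most like the family's median. Rps7, Rpl14, Rpl15, Rpl23 and Rpl38 were named after their values were seen. Same-numbered libraries deviated together only in part (r from -0.31 to 0.67 over 26 pairs, against -0.59 to 0.39 over 52 pairs of other numbers), so the numbers were not taken to pair libraries. Some genes that the rule names are not reported here.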

Additional observations from a re-analysis of the deposited data

How the results depend on the processing

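Counts are members called higher or lower. Where the score did not overlap between 2 groups, the fits with it cannot tell score and group apart. With the long-minus-short score as covariate, MEKi/L against S/L gave 16 higher and 0 lower, GSK3i/L against S/L 16 higher, 2i/L against S/L 8 and 2, 2i/L against MEKi/L 2 lower, 2i/L against GSK3i/L 3 and 1, MEKi/L against GSK3i/L 16 and 2, and 24 against 8 days 0 higher. Medians turned to 0.14 (2i/L against S/L), 0.0076 (2i/L against GSK3i/L) and -0.0165 (24 against 8 days), and in MEKi/L against S/L, GSK3i/L against S/L and MEKi/L against GSK3i/L to 0.21, 0.11 and 0.16. Rpl39 turned to 0.55 and Rps27 to 0.70 in MEKi/L against S/L. In 2i/L against S/L Rpl10l turned to 0.80, Rpl39 to 0.50 and Rps27 to 0.29, and Rpl39l turned to 1.08 in 2i/L against GSK3i/L.

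Without replicate 1 of both MEKi/L and GSK3i/L, MEKi/L against S/L gave 3 higher and 13 lower, GSK3i/L against S/L 10 lower, 2i/L 67 lower against MEKi/L and 66 against GSK3i/L, MEKi/L against GSK3i/L 2 higher, and 24 against 8 days 34 higher. No filter gave 2 higher and 3 lower in MEKi/L and 3 lower in GSK3i/L against S/L, 39 lower in 2i/L against GSK3i/L and 1 higher at 24 days. The 2 groups alone gave 0 higher in MEKi/L, 0 higher and 2 lower in GSK3i/L against S/L, 0 lower in 2i/L against GSK3i/L, 0 and 0 in MEKi/L against GSK3i/L and 0 higher at 24 days.

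Quantile normalization gave 4 higher and 3 lower in MEKi/L against S/L, 0 lower in 2i/L and in MEKi/L against GSK3i/L, and 1 higher at 24 days. Trimmed mean scaling gave 0 higher and 13 lower in MEKi/L against S/L, 1 higher and a median of -1.26 in 2i/L against S/L, 28 lower in 2i/L against GSK3i/L and 12 higher at 24 days. A pseudocount of 1 RPM gave 2 higher in MEKi/L against GSK3i/L, and voom weights 11 lower in 2i/L against MEKi/L. A replicate block gave 13 lower in MEKi/L against S/L, 2 lower in 2i/L against MEKi/L, 25 lower in 2i/L against GSK3i/L, 2 higher in MEKi/L against GSK3i/L and 0 higher at 24 days.

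Leaving out 1 library gave these ranges: MEKi/L against S/L 0 to 3 higher, 0 to 17 lower, median -0.65 to -0.11; GSK3i/L against S/L 1 to 6 higher, 2 to 27 lower, median -0.66 to -0.08; 2i/L against S/L 3 to 4 higher, 50 to 54 lower, median -1.10 to -1.01. For 2i/L against MEKi/L they were 0 to 0, 0 to 54 and -0.95 to -0.41, against GSK3i/L 0 to 1, 0 to 59 and -0.93 to -0.43, for MEKi/L against GSK3i/L 0 to 2, 0 to 1 and -0.32 to 0.36, and at 24 days 0 to 54, 0 to 1 and 0.44 to 1.01. Fits that leave 1 library at 24 days assume that it varies like the others. Of 1203 values for 86 genes in a comparison, 995 stayed called or uncalled (50 of them, uncalled, with the other sign), 126 lost the call, 76 gained it and 6 called values turned or were called in the other direction. The cause was not tested. The unknown depth of the 6 matched libraries limits what can be said of low genes such as Rpl3l and Rpl29.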
